A study of Mus musculus with 9 samples.

Results

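The collecting duct principal cell genes studied here were the 10 symbols *Aqp2*, *Aqp3*, *Aqp4*, *Avpr2*, *Scnn1a*, *Scnn1b*, *Scnn1g*, *Fxyd4*, *Hsd11b2* and *Nr3c2*, a list chosen by name. All 10 of them were found among the 13081 genes of the kidney table, and all 10 passed the filter on low values, which asked for 4 or more libraries with 10 or more normalised counts, as did 12667 genes in all. The table came from kidneys of wild-type C57BL/6 mice, 4 of them 3 months old (young) and 5 of them 16 months old (old), with no treatment recorded for either age. Neither the sex of these animals nor the share of cortex and medulla in each piece of tissue was given, and the labels do not say whether mice were pooled. RNA was read by 3′ end sequencing, in which each read comes from near the 3′ end of a polyadenylated transcript, and a normalised count is a gene's reads divided by the size factor of its library.

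Principal cells line the collecting duct and set the final volume and sodium content of urine. Vasopressin binds the V2 receptor (*Avpr2*) on their basolateral side and, through cyclic AMP and protein kinase A, sends aquaporin 2 (*Aqp2*) to the apical membrane, where water enters. Water then leaves through aquaporins 3 and 4 (*Aqp3*, *Aqp4*) on the basolateral side. Sodium enters through the epithelial sodium channel ENaC, built of an alpha, a beta and a gamma subunit (*Scnn1a*, *Scnn1b*, *Scnn1g*). Aldosterone acts through the mineralocorticoid receptor (*Nr3c2*), which 11-beta-hydroxysteroid dehydrogenase type 2 (*Hsd11b2*) shields from glucocorticoids by inactivating them. *Fxyd4* encodes a small regulator of the sodium pump. Parts of this set are also made in the connecting and distal tubule, and *Aqp3* and the ENaC subunits are made in other epithelia.

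In GENCODE vM21 (build GRCm38, 1 build earlier than the one used to make the counts) the genes lay at chr15:99579055-99584547 on the plus strand (*Aqp2*, 4 exons), chr4:41092722-41098183 on the minus strand (*Aqp3*), chrX:73892102-73895502 on the plus strand (*Avpr2*), chr6:125320659-125344943 on the plus strand (*Scnn1a*), chr6:117933559-117937692 on the minus strand (*Fxyd4*), chr8:105518755-105523988 on the plus strand (*Hsd11b2*) and chr8:76899442-77245012 on the plus strand (*Nr3c2*). *Scnn1g* (chr7:121734479-121768475) and *Scnn1b* (chr7:121865038-121918514) were near each other on the plus strand of chromosome 7. *Scnn1b* overlapped *Cog7* on the opposite strand, and *Avpr2* overlapped *Arhgap4* and *L1cam*. The counting used strand, so reads of these opposite genes were counted apart. On the same strand, *Fxyd4* overlapped *Gm25535* and *Nr3c2* overlapped *Gm23260*, which strand does not separate.

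The promoters of 4 genes are shown as examples of members that moved together: *Scnn1g* and *Scnn1b*, neighbours that both fell with age, as *Aqp3* and *Hsd11b2* did, and *Aqp2* and *Fxyd4*, which were highest in the same old library, as *Avpr2* was. Each sequence holds 300 bases from RefSeq (GRCm38.p6), 250 before the start site and 50 from it on, and capitals mark the motifs found. They lie at chr7:121734229-121734528 (plus), chr7:121864788-121865087 (plus), chr15:99578806-99579105 (plus) and chr6:117937286-117937585 (minus), in the order printed.
Scnn1g: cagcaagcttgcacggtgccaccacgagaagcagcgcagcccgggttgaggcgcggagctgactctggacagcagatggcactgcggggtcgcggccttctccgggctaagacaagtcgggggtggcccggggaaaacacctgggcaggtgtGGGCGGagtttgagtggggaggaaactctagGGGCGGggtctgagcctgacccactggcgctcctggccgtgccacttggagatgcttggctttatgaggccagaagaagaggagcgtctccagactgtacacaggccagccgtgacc
Scnn1b: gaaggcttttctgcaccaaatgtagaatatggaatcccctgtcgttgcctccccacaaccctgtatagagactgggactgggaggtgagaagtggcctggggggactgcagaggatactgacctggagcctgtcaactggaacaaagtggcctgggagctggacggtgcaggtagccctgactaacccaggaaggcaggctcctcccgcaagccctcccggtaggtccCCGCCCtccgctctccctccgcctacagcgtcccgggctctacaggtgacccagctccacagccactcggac
Aqp2: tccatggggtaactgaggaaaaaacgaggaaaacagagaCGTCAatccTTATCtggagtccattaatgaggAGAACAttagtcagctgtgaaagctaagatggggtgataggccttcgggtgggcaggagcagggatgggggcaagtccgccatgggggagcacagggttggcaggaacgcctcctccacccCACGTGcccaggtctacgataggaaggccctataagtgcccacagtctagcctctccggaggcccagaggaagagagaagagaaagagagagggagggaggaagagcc
Fxyd4: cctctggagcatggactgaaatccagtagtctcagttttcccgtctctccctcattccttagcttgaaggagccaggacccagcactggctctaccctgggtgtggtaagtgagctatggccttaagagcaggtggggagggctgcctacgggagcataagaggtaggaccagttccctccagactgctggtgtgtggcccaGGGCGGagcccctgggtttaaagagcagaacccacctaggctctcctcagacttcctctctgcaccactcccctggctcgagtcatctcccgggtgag

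The motifs searched on both strands were the full cyclic AMP response element TGACGTCA and the shorter TGACG that it contains, the steroid receptor motif AGAACA, the GATA factor motif GATAA, the NFAT core TGGAAA, the TATA box TATAAA, the E-box CACGTG and the GC box GGGCGG. *Scnn1g* held GGGCGG at 98 and 67 bases before the start site, *Scnn1b* held it on the other strand at 22 bases, and *Fxyd4* held it at 48 bases. GGGCGG was present in 35.7% of 32851 promoters of the same length. *Aqp2* held 4 of the motifs: the short cyclic AMP element (in 20.8% of promoters) at 211 bases before the start site, the GATA motif (25.4%) at 202 bases, the steroid receptor motif (19.0%) at 179 bases and the E-box (7.15%) at 58 bases. The full element TGACGTCA (1.79% of promoters) was in none of these 4 windows. Each match describes letters only.

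Of the 10 genes, 6 changed between young and old kidney, against 59.7% of all genes tested, so the share that changed was near the background. edgeR and DESeq2 on the recovered reads called the same 6, against 60.4% and 59.5% of all genes. *Aqp3*, *Scnn1b*, *Scnn1g* and *Hsd11b2* were lower in old kidney (4 of 10, where 30.5% of all genes were lower), and *Aqp4* and *Scnn1a* were higher (2 of 10, where 29.2% were higher). The same 6 genes changed by at least 1.5-fold (45.1% of all genes did), *Scnn1b* only just, and the same 6 had young and old values that did not overlap (49.0% of all genes). The tests were limma's moderated tests on log2(normalised count + 1) with Benjamini-Hochberg adjustment over all 12667 genes, and every log2 fold change below is old minus young on that scale. The median log2 fold change of the 10 genes was -0.34, beside 0.00 for all genes tested (-0.0027). In bulk tissue, fewer cells of a type and less RNA per cell cannot be told apart.

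Libraries held 4486406 to 6355095 reads in the table (3 reads are 4.72e-05% to 6.69e-05% of a library), and the reads carry no molecular identifiers, so counting error is a lower limit of the error. Sample titles carried 2 prefixes, each holding a single age, so age cannot be told apart from differences in preparation or sequencing that went with the prefix. Mitochondrial genes took 27.0% to 29.7% of reads in young and 35.8% to 38.1% in old libraries, and the mitochondrial rRNA genes among them took 2.98% to 4.46% and 21.8% to 25.4%. Old replicate 3 stood apart from the other old libraries for several of the genes described here, and results of the 10 genes whose call rests on it are given with and without it.

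**Figure D1:**
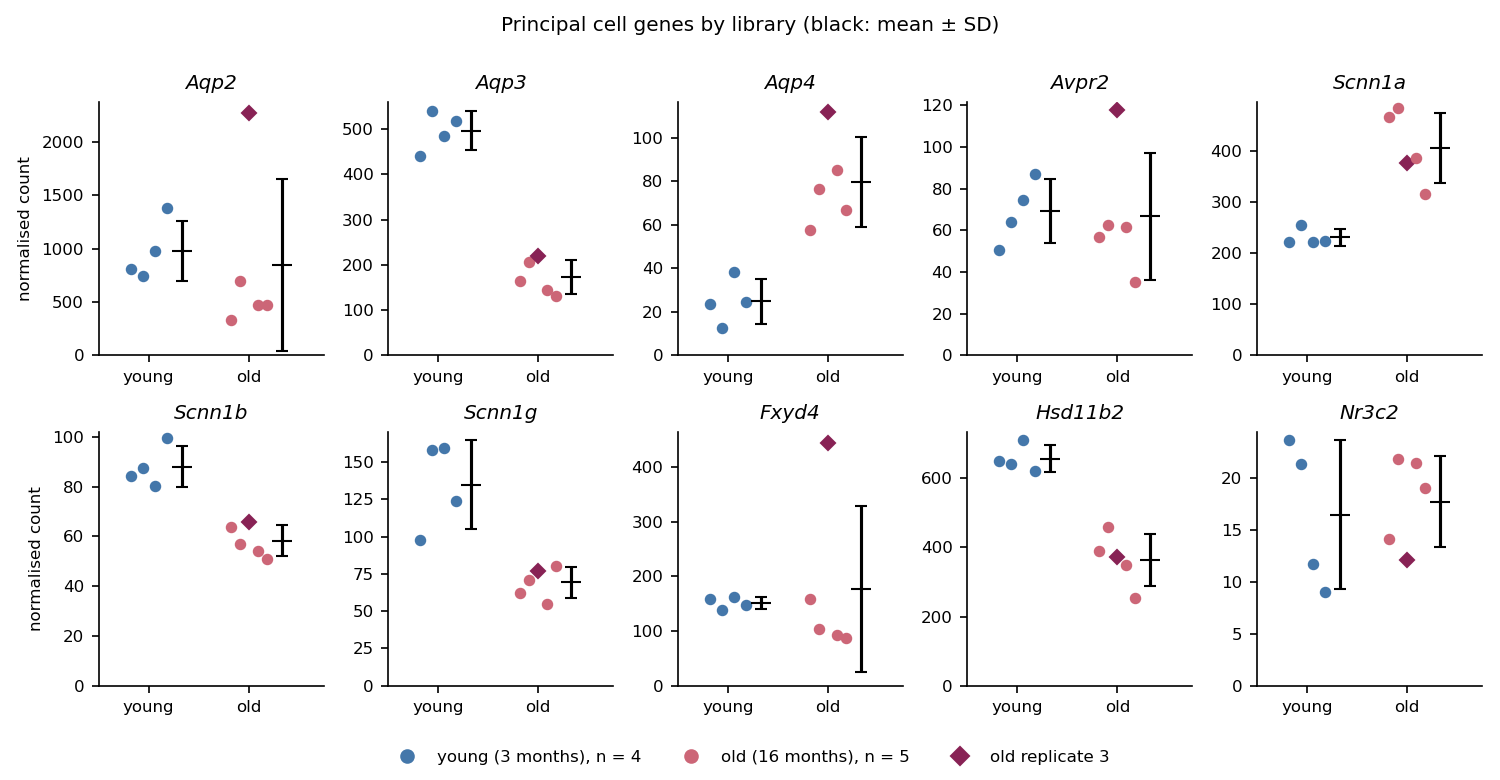
Normalised counts (vertical axes, linear and starting at 0) of each principal cell gene in 4 young and 5 old kidney libraries, with mean ± s.d. in black and old replicate 3 as a diamond. Young and old points are apart for *Aqp3*, *Aqp4*, *Scnn1a*, *Scnn1b*, *Scnn1g* and *Hsd11b2*, and the diamond lies far above the other old points for *Aqp2* (2267), *Fxyd4* (443) and *Avpr2* (118).

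Of the 3 aquaporins, 1 fell, 1 rose and 1 did not pass with all 9 libraries. *Aqp3*, the basolateral water and glycerol channel, had normalised counts of 441, 540, 485 and 519 in the young libraries and 164, 206, 220, 145 and 132 in the old ones. Every old library was below every young library. The mean fell from 496 ± 43.1 (s.d., n = 4) to 173 ± 38.4 (n = 5), a log2 fold change of -1.54 ± 0.14 (s.e.; limma adjusted p = 3.34e-08), or 2.90-fold lower, the largest fall of the 10 genes.

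*Aqp4*, the other basolateral water channel, moved the opposite way. Its normalised counts were 23.7, 12.6, 38.2 and 24.4 in young and 57.8, 76.6, 112, 84.9 and 66.8 in old kidney, so the groups were apart although reads were few (13 to 39 per young library and 49 to 110 per old library). The mean rose from 24.8 ± 10.5 to 79.5 ± 20.6, a log2 fold change of 1.70 ± 0.26 (limma adjusted p = 1.76e-05), or 3.26-fold higher.

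*Aqp2*, the vasopressin-regulated apical channel, had normalised counts of 811, 746, 981 and 1376 in young and 334, 694, 2267, 468 and 469 in old libraries. Of the old libraries, 4 were below every young library and old replicate 3 was above every young library. With all 9 libraries the means were 979 ± 283 and 846 ± 804, and the log2 fold change of -0.55 ± 0.36 did not pass the test (limma adjusted p = 0.196, 95% interval -1.30 to 0.20), and edgeR on the same libraries gave -0.21 (adjusted p = 0.658). Without old replicate 3 the old mean was 491 ± 149 (n = 4) and *Aqp2* was lower in old kidney by a log2 fold change of -1.0 ± 0.19 (limma adjusted p = 0.000204), a comparison in which 58.9% of all genes were called. Without that library the fall in *Aqp2* was also called by edgeR (-0.99, adjusted p = 0.000139), by DESeq2 (-0.99, adjusted p = 0.00175), with mitochondrial genes left out of the scaling (-0.88, limma adjusted p = 0.000842) and with a trend on transcript length removed (-0.68, limma adjusted p = 0.00463).

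*Avpr2*, the V2 receptor, had normalised counts of 50.8, 64.1, 74.5 and 86.9 in young and 56.6, 62.4, 118, 61.6 and 35.0 in old kidney. The groups overlapped, and old replicates 3 and 5 held the highest and lowest of all 9 values. Its log2 fold change was -0.13 ± 0.25 (limma adjusted p = 0.676, 95% interval -0.67 to 0.40) and, without old replicate 3, -0.36 ± 0.22 (limma adjusted p = 0.159).

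**Figure D2:**
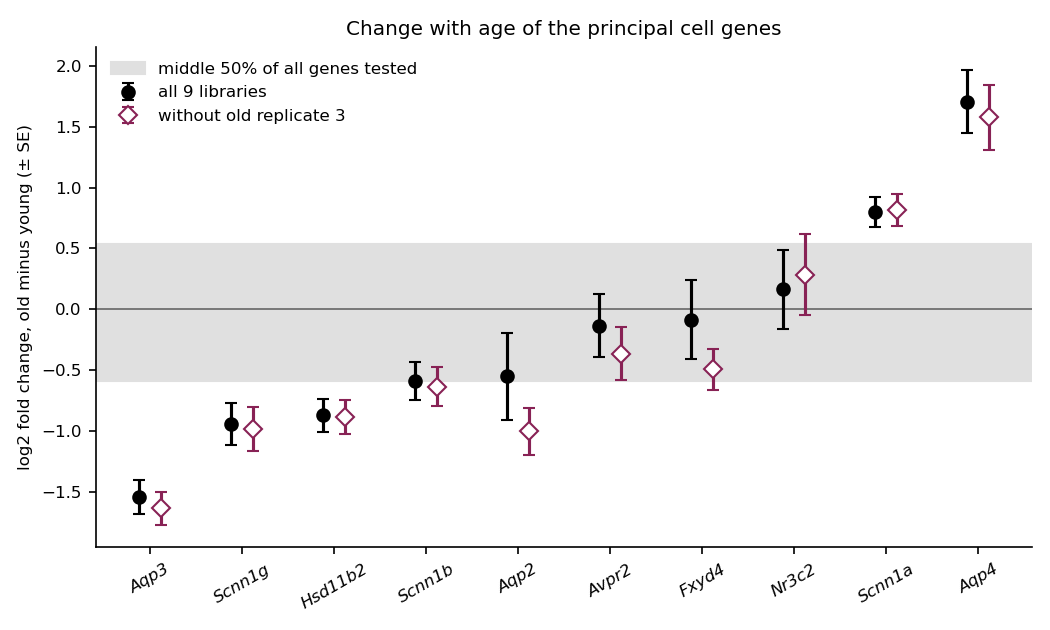
Log2 fold change (old minus young, ± s.e.) of each principal cell gene with all 9 libraries (black) and without old replicate 3 (open diamonds), over the range that holds the middle 50% of all genes tested (grey). *Aqp3* and *Aqp4* lie at the ends (-1.54 and 1.70), and leaving out the library moves *Aqp2* from -0.55 to -1.0 and *Fxyd4* from -0.08 to -0.49.

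The subunits of ENaC did not change in 1 direction. *Scnn1a*, the alpha subunit, had normalised counts of 221, 256, 222 and 224 in young and 466, 482, 376, 386 and 315 in old libraries. All 5 old libraries lay above the young ones. The mean rose from 230 ± 16.8 to 405 ± 68.8, a log2 fold change of 0.80 ± 0.12 (limma adjusted p = 1.99e-05), or 1.74-fold higher.

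The beta and gamma subunits fell. *Scnn1b* had 84.4, 87.4, 80.4 and 99.6 normalised counts in young and 63.6, 56.9, 65.9, 54.1 and 50.9 in old kidney, a log2 fold change of -0.59 ± 0.15 (limma adjusted p = 0.00294), or 1.5-fold lower. *Scnn1g* had 97.5, 158, 160 and 124 in young and 62.5, 71.1, 77.1, 55.0 and 80.6 in old kidney, a log2 fold change of -0.94 ± 0.17 (limma adjusted p = 0.000119), or 1.91-fold lower. For both genes every old library was below every young one, and old replicate 3 was within or just above the range of the other old libraries.

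Ratios of genes within a library were taken after adding 1 to each normalised count, and they were compared by an exact two-sided permutation test over the 126 ways to place the ages, with adjustment over 8 ratios. *Scnn1a*/*Scnn1b* was 2.60, 2.90, 2.73 and 2.23 in young and 7.22, 8.35, 5.64, 7.03 and 6.09 in old libraries. *Scnn1a*/*Scnn1g* was 2.26, 1.61, 1.38 and 1.80 in young and 7.35, 6.70, 4.83, 6.91 and 3.87 in old libraries. Neither ratio overlapped between the ages. The first rose by 1.38 and the second by 1.73 on the log2 scale, each with an exact permutation p = 0.00794, the smallest the design can give (adjusted p = 0.0317). With 1 library left out the adjusted p of both was 0.0476 to 0.114, in designs whose smallest p is larger, and both kept their direction. *Scnn1b*/*Scnn1g*, at 0.51 to 0.87 in young and 0.64 to 1.02 in old kidney, overlapped and did not pass (log2 difference 0.35, exact permutation p = 0.167, adjusted p = 0.222).

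**Figure D3:**
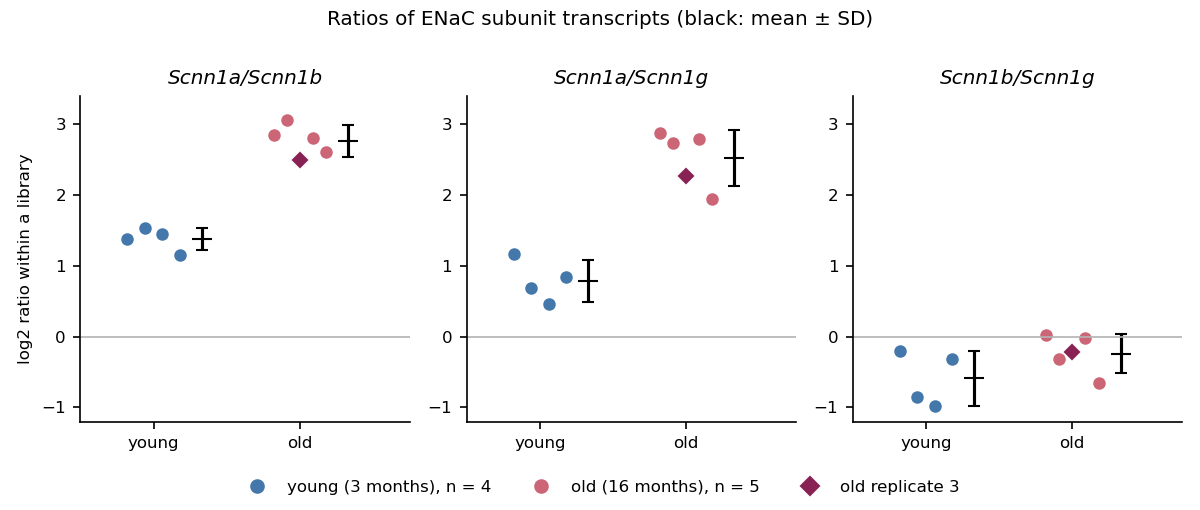
Log2 ratio of normalised counts, with 1 added to each (vertical axis), of each pair of ENaC subunits within each library, for 4 young and 5 old libraries, with mean ± s.d. in black. Old libraries lie above young ones for *Scnn1a*/*Scnn1b* and *Scnn1a*/*Scnn1g* (differences of 1.38 and 1.73), while *Scnn1b*/*Scnn1g* overlaps between ages.

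*Hsd11b2*, the enzyme that guards the mineralocorticoid receptor, had normalised counts of 651, 643, 712 and 621 in young and 390, 461, 372, 351 and 252 in old libraries. The groups were apart, with the old values spread more widely. Its mean fell from 657 ± 38.8 to 365 ± 75.3, a log2 fold change of -0.87 ± 0.13 (limma adjusted p = 1.70e-05), or 1.83-fold lower.

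*Nr3c2*, the receptor itself, was read only 10 to 29 times per library. Its normalised counts of 23.7, 21.4, 11.8 and 9.1 in young and 14.1, 21.9, 12.2, 21.5 and 19.1 in old kidney overlapped throughout. No difference was detectable at this depth (log2 fold change 0.17 ± 0.32, limma adjusted p = 0.681, 95% interval -0.51 to 0.85), and the interval allows changes of up to about 0.85 on the log2 scale. With 1 added to each normalised count, the ratio *Hsd11b2*/*Nr3c2* was 26.3 to 61.9 in young and 12.6 to 28.3 in old kidney. Its log2 difference of -1.04 had an exact permutation p of 0.0317 and missed the threshold after adjustment (adjusted p = 0.0847), which it passed without young replicate 1 (adjusted p = 0.0476) and with a pseudocount of 5 (adjusted p = 0.0212).

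*Fxyd4*, the sodium pump regulator, had normalised counts of 158, 139, 163 and 147 in young and 159, 104, 443, 92.3 and 87.0 in old libraries. Old replicate 3 was above all young libraries, 3 other old libraries were below them and old replicate 1 was among them. The log2 fold change was -0.08 ± 0.32 (limma adjusted p = 0.837, 95% interval -0.76 to 0.59), and its sign turned under edgeR (0.23) and DESeq2 (0.23). Without old replicate 3 it was -0.49 ± 0.17 (limma adjusted p = 0.0186). Without that library edgeR (-0.46, adjusted p = 0.0224) and DESeq2 (-0.46, adjusted p = 0.0263) called it as well, but it was not called with mitochondrial genes left out (-0.37, limma adjusted p = 0.070) or with the length trend removed (-0.14, limma adjusted p = 0.478). Leaving out old replicate 3 thus raised the genes called from 6 to 8 of 10, and the genes called lower from 4 to 6. Of all genes, 59.7% were called (30.5% lower) with that library and 58.9% were called without it. Without it, 7 of the 10 were called with mitochondrial genes left out or with the length trend removed.

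The remaining 4 ratios were not called. *Aqp2*/*Aqp3* was 1.38 to 2.65 in young and 2.03 to 10.3 in old kidney (log2 difference 0.99, exact permutation p = 0.0476, adjusted p = 0.0952), with old replicate 3 at 10.3 and the other old libraries at no more than 3.55. *Aqp2*/*Avpr2* (log2 difference -0.42, adjusted p = 0.345 in the exact permutation test), *Aqp2*/*Scnn1g* (0.39, adjusted p = 0.579) and *Fxyd4*/*Scnn1g* (0.85, adjusted p = 0.203) overlapped between ages.

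The spread among old kidneys differed between the genes. On the log2 scale, the standard deviation of *Aqp2* among old libraries was larger than that of 98.6% of all genes tested, that of *Fxyd4* larger than 97.8% and that of *Avpr2* larger than 89.7%. Old replicate 3 lay above the mean of the other old libraries by 2.25 for *Aqp2*, 2.04 for *Fxyd4* and 1.15 for *Avpr2*, and 27, 37 and 228 of the 12667 genes tested had a larger excess there. The difference was 0.65 for *Aqp4*, 0.47 for *Aqp3*, 0.23 for *Scnn1b*, 0.21 for *Scnn1g*, 0.07 for *Hsd11b2*, -0.11 for *Scnn1a* and -0.59 for *Nr3c2*. It was the highest old library for 6 of the 10 genes (18.9% of all genes), and old replicate 5 was the lowest for 6.

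**Figure D4:**
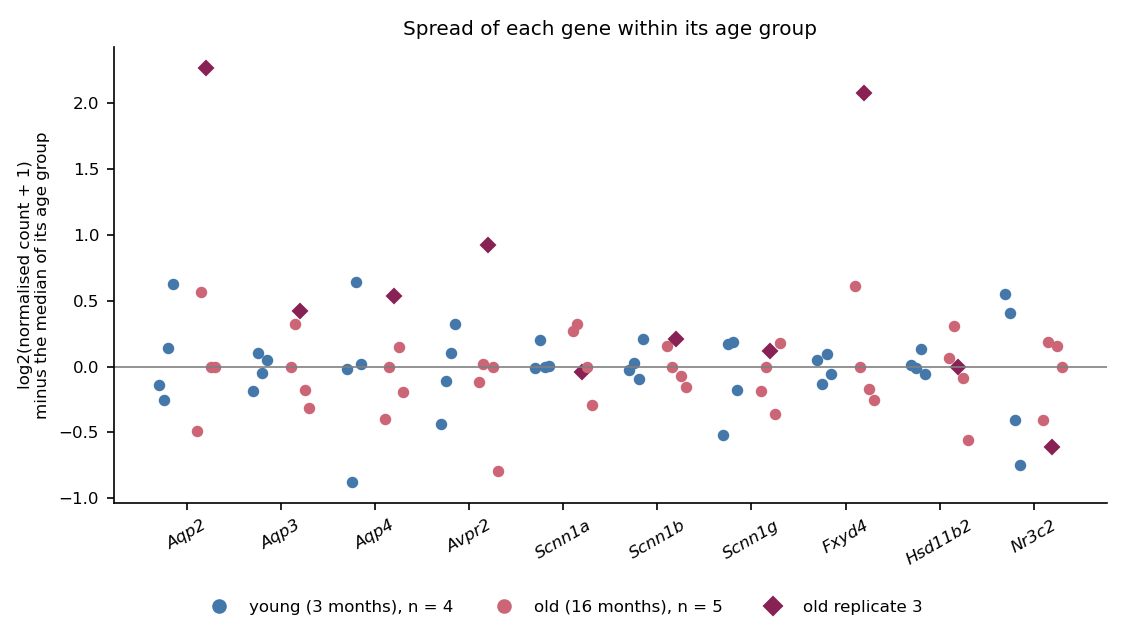
Distance of each library from the median of its own age group on the log2(normalised count + 1) scale, for each principal cell gene. Old replicate 3 (diamonds) stands far above its group for *Aqp2*, *Fxyd4* and *Avpr2* and near the middle of it for *Scnn1a* and *Hsd11b2*.

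The summed normalised counts of the 10 principal cell genes ranged from 1507 to 2235 in 4 of the old libraries and reached 4063 in old replicate 3 (young 2563 to 3230). Of that 4063, *Aqp2* held 2267 and *Fxyd4* 443, so the sum largely repeats these genes. Genes of other lists also differed in that library. Of 17 genes of the collecting duct epithelium in the table, 10 were highest in it among old libraries (sum 5147, other old 4280 to 5009, young 4225 to 4507), as were 3 of 5 inner medulla and osmolyte genes (sum 3333, other old 2513 to 3007, young 2856 to 3389). All 4 adipocyte markers were highest in it (sum 1033, other old 56.0 to 370, young 271 to 1427). The only urothelial marker in the table, *Upk3a* (1 of 7 listed), was at 89.2, against 0 to 22.4 in the other old and 0 to 41.8 in the young libraries. Proximal tubule markers summed to 42371 there and to 48493 to 57009 in the other old libraries (young 42476 to 45425). Endothelial markers summed to 1146 there (other old 955 to 1027, young 716 to 796). Intercalated cell markers, of the same duct, summed to 1293, within the 1110 to 1398 of the other old libraries. The part of these genes, and of the share of medulla or adjoining tissue in each piece, in the levels of *Aqp2*, *Fxyd4* and *Avpr2* was not tested.

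**Figure D5:**
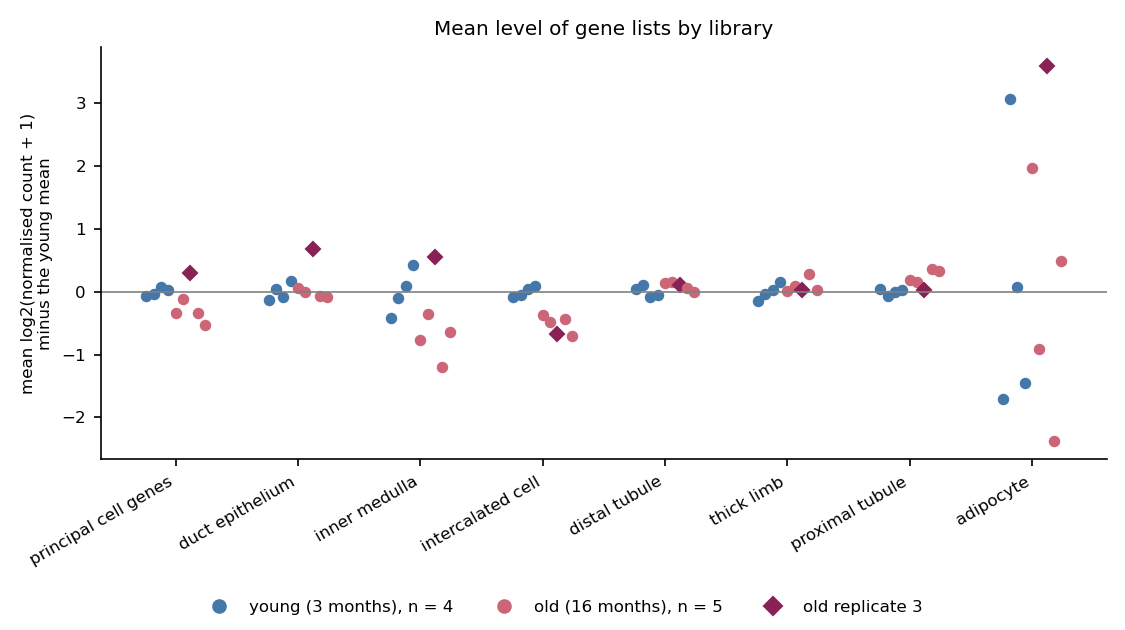
Mean log2(normalised count + 1) over each gene list in each library, minus the mean of the young libraries, with old replicate 3 as a diamond. Of the 8 lists drawn, the diamond is the highest old point for the principal cell, duct epithelium, inner medulla and adipocyte lists, and old libraries lie below young ones for the intercalated cell list.

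The genes that act on *Aqp2* moved both ways. Of 22 genes listed for V2 receptor signalling and *Aqp2* trafficking, 21 were tested, 9 rose, 7 fell and 5 did not pass (median log2 fold change 0.04). Among all genes tested, 29.2% rose and 30.5% fell. Without old replicate 3, 8 of the listed genes were higher and 6 lower, where 58.9% of all genes were called. *Prkaca*, a catalytic subunit of protein kinase A, fell by 0.93 on the log2 scale (341 ± 13.9 to 185 ± 56.3 normalised counts, limma adjusted p = 0.000139), and *Prkacb*, another catalytic subunit, rose by 0.96 (240 ± 17.8 to 468 ± 36.9, adjusted p = 2.20e-07 with limma). Among the genes of vesicle recycling, the small GTPase *Rab11a* fell by 0.67 and its effector *Rab11fip2* rose by 0.95. The regulatory subunit *Prkar1a* fell by 0.78, and the cyclic AMP phosphodiesterase *Pde4d* rose by 0.96. These genes are expressed in most kidney cells, so their values are of the whole tissue.

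Of 21 tested genes of aldosterone action and ENaC regulation, 5 rose, 8 fell and 8 did not pass (median -0.17). Of all genes tested, 59.7% were called, 29.2% higher and 30.5% lower, so the share called was near the background. *Sgk1*, the kinase that keeps ENaC at the cell surface, rose by 1.25 (127 ± 11.8 to 308 ± 67.6, limma adjusted p = 4.32e-07), and the glucocorticoid receptor *Nr3c1* rose by 0.91. *Nedd4*, a ubiquitin ligase, rose by 0.76. *Nedd4l*, on the same list and named after its values were seen, did not pass (log2 fold change 0.19, limma adjusted p = 0.139). *Fkbp5*, a co-chaperone of steroid receptors that glucocorticoids induce, fell by 1.56 (249 ± 79.9 to 82.7 ± 19.3, limma adjusted p = 2.40e-06). The 14-3-3 protein *Ywhae* fell by 1.12, and *Furin*, a protease that cleaves ENaC subunits, fell by 0.79.

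Among 10 relatives of the aquaporin, Fxyd and dehydrogenase genes, 2 rose, 2 fell and 6 did not pass (median -0.03). The shares over all genes tested were 29.2% higher and 30.5% lower. *Aqp1*, the water channel of the proximal tubule and thin descending limb, rose by 0.34, and *Fxyd5* rose by 0.93. The glycerol channel *Aqp7* fell by 1.13. *Hsd11b1*, the enzyme that regenerates active glucocorticoid, fell by 1.25 (523 ± 154 to 211 ± 21.6, limma adjusted p = 4.41e-06), the same direction as *Hsd11b2*.

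Of 16 tested genes of the collecting duct epithelium and its transcription factors, 4 rose, 3 fell and 9 did not pass (median 0.04). Over all genes tested, 29.2% rose and 30.5% fell. Without old replicate 3 the count of lower genes on this list was 4. *Npnt*, a matrix protein of duct epithelium, rose by 1.33 (340 ± 26.9 to 872 ± 212, limma adjusted p = 2.34e-07), and *Pkhd1*, the gene of recessive polycystic kidney disease, rose by 0.73. The transcription factor *Gata2* fell by 0.52 and the cadherin *Cdh16* by 0.32. The calls of *Cdh16* and *Pkhd1* were lost with the length trend removed, and those of *Gata2* and *Cdh16* with mitochondrial genes left out. That of *Gata2* was also lost with the GC trend removed and without young replicate 1, 2 or 3 or old replicate 2 or 5. The transcription factors *Gata3* (log2 fold change 0.24, limma adjusted p = 0.234) and *Tfcp2l1* (0.15, adjusted p = 0.199 with limma) and the keratins *Krt7* (0.06) and *Krt8* (0.20) did not pass, and they were named after their values were seen.

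Intercalated cells, the acid-base cells that share the duct, had 7 of 11 markers lower and 1 higher (median -0.62). Of all genes tested, 30.5% were lower and 29.2% higher. The summed levels of the intercalated cell markers were 1680 to 1795 in young and 1110 to 1398 in old libraries. The anion exchangers *Slc4a9* and *Slc26a4* fell by 1.45 and 0.96 and the proton pump subunit *Atp6v0d2* by 0.76, while *Slc4a1*, the exchanger of acid-secreting cells, rose by 0.63. Distal and connecting tubule markers split into 3 higher, 3 lower and 2 not called (median -0.27). The magnesium channel *Trpm6* rose by 1.77, and the protease *Klk1* fell by 1.48.

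Markers of the tissue around the ducts also moved both ways, where 29.2% of all genes tested were higher and 30.5% lower. Thick ascending limb markers had 2 higher and 1 lower of 6 (median 0.13; *Egf* rose by 1.04, *Cldn10* fell by 1.56), and inner medulla and osmolyte genes had 1 higher and 1 lower of 5 (median -0.83). Without old replicate 3 the inner medulla list had 3 lower, adding the urea transporter *Slc14a2* (log2 fold change -1.2, limma adjusted p = 0.0197) and *Akr1b3* (-1.38, limma adjusted p = 0.0131), both named after their values were seen. The thick ascending limb list then had 3 higher and 1 lower. DESeq2 without old replicate 3 did not call *Slc14a2*. Of the inner medulla list, the inositol transporter *Slc5a3* rose by 0.80 and the small heat shock protein *Cryab* fell by 1.30, calls that were lost with the length trend removed (*Slc5a3*) and under DESeq2 and limma's robust option (*Cryab*). Without old replicate 3 *Cryab* was at -1.69. Proximal tubule markers had 3 higher and 2 lower of 7 (median 0.04; *Slc5a12* rose by 1.63, *Slc22a6* fell by 1.26) and podocyte markers 2 higher and 1 lower of 4 (median 0.03; *Podxl* fell by 1.45). Endothelial and leukocyte markers each had 2 higher and 0 lower of 4 (medians 0.26 and 0.50; *Pecam1* rose by 0.76, *Ptprc* by 1.37). Of 3 adipocyte markers tested (median 1.10), *Fabp4* fell by 1.89 (log2 fold change -2.34 without old replicate 3), and *Adipoq* (2.36, limma adjusted p = 0.0646) and *Cfd* (1.10, limma adjusted p = 0.502), named after their values were seen, did not pass. The 1 urothelial marker was not called (limma adjusted p = 0.691). Whether the makeup of the tissue bore on the principal cell genes was not tested.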

How the data were processed

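Total kidney RNA (500 ng) was made into oligo-dT primed, strand-specific 3′ libraries without molecular identifiers and sequenced on an Illumina NextSeq 550. Per the submitters' notes and the study's methods, the authors aligned reads with TopHat2 2.0.10, Bowtie 1.0.0 and SAMtools 0.1.19 to GRCm39, used HTSeq 0.6.1 for strand-specific counts of each gene and normalised them with DESeq2. The deposited values are a signal of this kind, reads divided by a size factor per library. Whole reads were recovered from every column (100% of values whole within 0.001), and depth was 4486406 to 6355095 reads per library.

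Old (n = 5) was compared with young (n = 4) by limma 3.58.1 (eBayes with a variance trend) on log2(normalised count + 1) over the 12667 genes that had 10 or more normalised counts in 4 or more libraries, and genes were called at a Benjamini-Hochberg adjusted p under 0.05. Within-library ratios, with 1 added to each normalised count, used the exact permutation test (scipy 1.17.1). Alternatives were DESeq2 1.42.0 and edgeR 4.0.16 on those reads, other pseudocounts (0.1 and 5), filters, scalings, thinned reads, removal of trends on transcript length or GC content (98.3% of genes matched by symbol) and leaving out each library. Leaving out old replicate 3 together with another test, scaling or length correction was added after seeing the data.

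The members and gene lists were chosen with earlier results of these data known. Named genes were all 10 members and, per list, the 3 called genes with the largest rise and the 3 with the largest fall among genes whose mean was 50 or more normalised counts (1 of each in lists under 10 genes). Some genes that this rule names are not reported here. Nothing in the labels says that libraries came from separate preparations of separate animals beyond the numbers of mice, so p-values measure the spread between these samples. Promoter sequences were matched for 7 of 10 members. Positions are those of an earlier build than the one used for counting.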

Additional observations from a re-analysis of the deposited data

Results flagged for a closer look

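2 of 56 groups of libraries tested held a library far from the others by Dixon's criterion, where chance gives about 1 in 20 groups (2.8 of 56). *Scnn1a* in young replicate 2 was at 8.003 on the log2(normalised count + 1) scale, while the other 3 young libraries were between 7.80 and 7.81, a gap of 0.92 of the whole range. All 5 old libraries were still above it. The mean level of the leukocyte markers in old replicate 1 was 6.94 on that scale, while the other 4 old libraries held 6.51 to 6.60, a gap of 0.78 of the range. Old replicate 3 was below Dixon's limit for *Aqp2* and *Fxyd4* on that scale.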

How the results depend on the processing

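The 6 called genes (*Aqp3*, *Aqp4*, *Scnn1a*, *Scnn1b*, *Scnn1g*, *Hsd11b2*) kept their direction and call under every alternative that tested them. Requiring a mean of 100 or more normalised counts tested only 5 of the 10 genes and called 3, 1 higher and 2 lower, all 3 by at least 1.5-fold. Leaving out each library in turn gave 6 to 8 genes called, 2 higher throughout, 4 to 6 lower, and 5 to 7 by at least 1.5-fold. The count at 1.5-fold was also 5 with a pseudocount of 5, with mitochondrial genes left out and with the length or GC trend removed, where *Scnn1b* was at -0.41 to -0.56. Leaving out a library gave 0 to 3 called ratios, with 0 for every library but young replicate 1. With only 2 ratios at the smallest p these smaller designs allow, the adjusted p cannot pass. The log2 differences kept their sign for *Scnn1a*/*Scnn1b* (1.31 to 1.45) and *Scnn1a*/*Scnn1g* (1.63 to 1.88).

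Signs turned for genes and ratios that were not called, and the cause was not tested. *Avpr2* was at 0.00821 with mitochondrial genes left out and 0.0199 with the length trend removed, and between -0.361 and 0.0686 with a library left out (above 0 without old replicate 5). *Fxyd4* was at 0.23 with edgeR and with DESeq2, 0.0573 with mitochondrial genes left out, 0.278 with the length trend removed, and between -0.491 and 0.0930 with a library left out (above 0 without old replicate 2, 4 or 5). *Nr3c2* was at -0.0897 with the length trend removed and between -0.0678 (without young replicate 4) and 0.365 with a library left out, and *Aqp2*/*Scnn1g* between -0.0219 (without old replicate 3) and 0.596. Leaving out mitochondrial genes moved the median log2 fold change of all genes from 0.00 (-0.0027) to 0.14. No paired analysis was made, because young and old kidneys came from different mice. *Nr3c2* had only 10 to 29 reads per library, and whether depth bore on its missing call was not tested.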
